A study of Mus musculus with 6 samples.

Results

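The cyclins and kinases that drive a cell through the G1 phase of its division cycle were examined in 2 mouse cell lines of embryonic fibroblasts, which are connective tissue cells taken into culture from embryos. The 9 genes are the D-type cyclins Ccnd1, Ccnd2 and Ccnd3, their kinase partners Cdk4 and Cdk6, the E-type cyclins Ccne1 and Ccne2, their partner Cdk2, and the phosphatase Cdc25a. They were taken by name from the 19856 genes that had a probe set with a single gene symbol, and each of the 9 had 1 such probe set. The cells of interest were a tetraploid line, called transformed in the series title and labelled as having abnormal DNA contents, and the control cells were a diploid line labelled as normal. Each line was represented by 3 samples, numbered 174_1 to 174_3 in the tetraploid line and FW_1 to FW_3 in the diploid line. All were grown in medium with 10% serum to 80% confluence, and their RNA was hybridised to Affymetrix whole-transcript mouse arrays. No passage, sex, strain or means of transformation is given in the labels, and since each ploidy had 1 line it cannot be told apart from transformation or from the line itself. The labels name no separate cultures for the 3 samples per line, so every p-value measures only the spread between these samples, which may be technical.

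Growth factors raise the D-type cyclins, which bind CDK4 or CDK6 and begin the phosphorylation of the retinoblastoma protein. That protein holds back the E2F transcription factors. Once it is phosphorylated, E2F switches on the E-type cyclins and many S phase genes, and cyclin E with CDK2 completes the step into DNA replication. CDC25A removes the inhibitory phosphates that keep CDK2 inactive. Fibroblasts use all 3 D-type cyclins and both of their kinases, and loss of 1 of them in mice is often covered by another.

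Of the 9 genes, Ccnd2 and Cdk6 fell in the tetraploid line, 0 rose and 7 did not pass the test. Ccnd2 was 2.25-fold lower and Cdk6 2.02-fold lower. The test was limma's moderated test over all genes with a Benjamini-Hochberg adjusted p below 0.05. Over all genes tested, 14.0% were called, 6.15% higher and 7.80% lower in the tetraploid line. With 9 genes, 2 calls are close to this background and are no result about the group. The median difference (tetraploid minus diploid, log2) was -0.17 over the 9 genes and 0.07 over all genes. At an unadjusted p below 0.05 there were 3 of the 9 genes, Ccnd2, Cdk6 and Cdk4, against 29.5% of all genes. In 4 of the 9 the arrays of the lines did not overlap, Cdk4 higher and Ccnd2, Cdk6 and Ccne1 lower in the tetraploid line, while this held for 37.3% of all genes. With 3 arrays per line, the smallest two-sided p of an exact permutation test is 0.1.

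**Figure D1:**
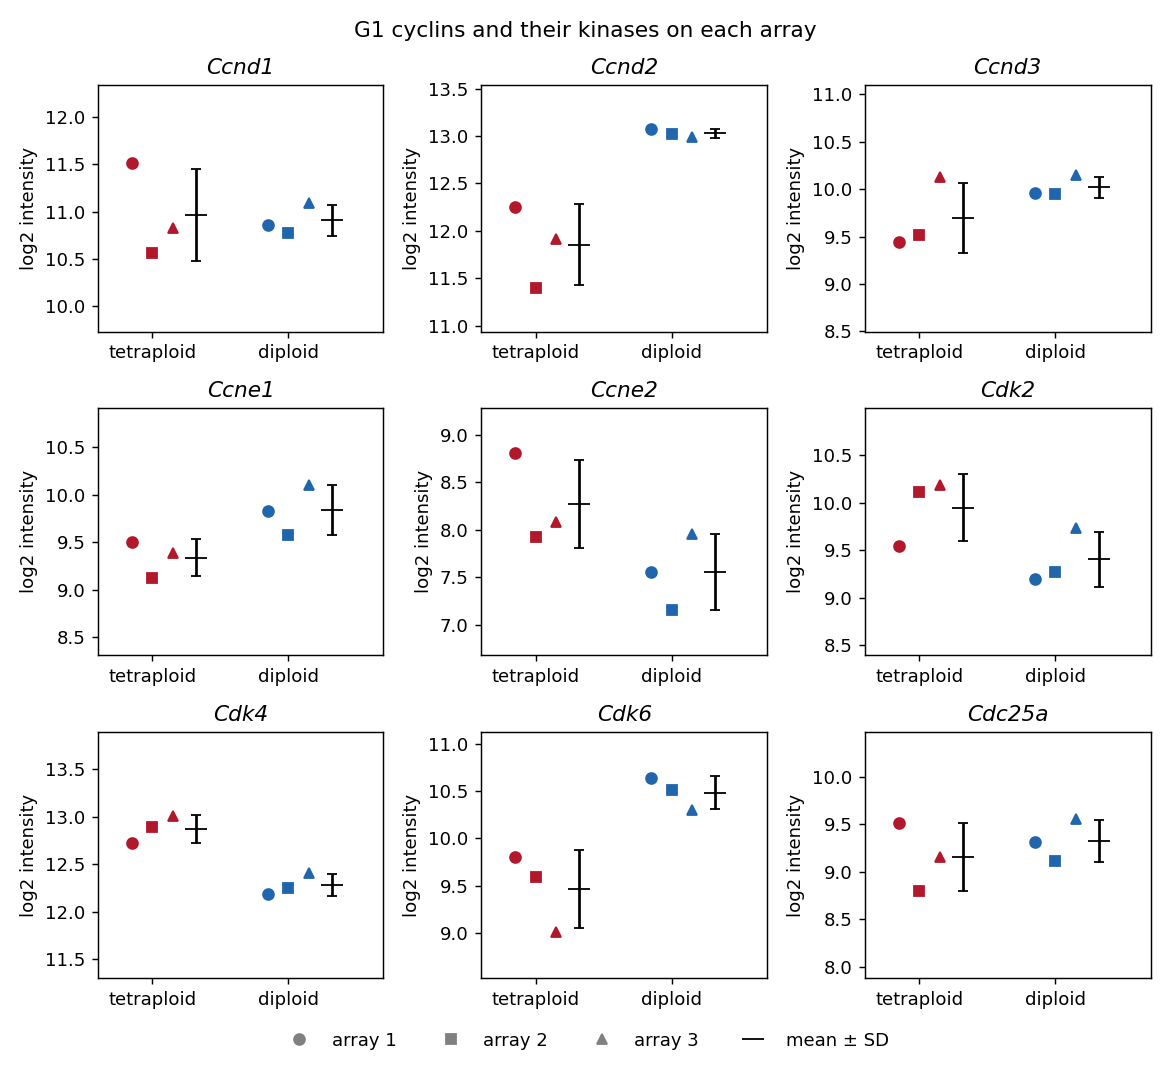
Log2 intensity of each of the 9 genes on the 3 tetraploid arrays (red, left) and the 3 diploid arrays (blue, right), with mean ± SD beside each group. Every panel spans the same log2 range, and the tetraploid points lie wholly below the diploid points for Ccnd2, Cdk6 and Ccne1 and wholly above them for Cdk4.

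All values that follow are deposited log2 intensities, on which levels of different genes cannot be set against each other. A background level was set on each array at the 95th percentile of 1027 olfactory receptor genes, between 7.01 and 7.41. Of the 9 genes, 8 lay above it on all 6 arrays, and Ccne2 did so on 5. Fibroblast markers were present, with 13 of 14 above background on all arrays. The exception was Fap, a surface protease of activated fibroblasts, which stayed within background on every tetraploid array. Fap was called as at least 4.09-fold lower (limma adjusted p = 8.31e-06). The fibroblast list had a median difference of -0.66, and the matrix genes Col1a1 (-0.87) and Fn1 (-0.80) fell (limma adjusted p 0.0402 and 0.0447). Of its 14 genes, 4 were higher in the tetraploid line, and 0 rose by the test. Pdgfra had the largest of these differences and did not pass (1.39, limma adjusted p = 0.0618). The calls of Col1a1 and Fn1 each ended in 5 of the 6 fits without an array, Col1a1 holding without tetraploid array 3 and Fn1 without tetraploid array 1. Of 9 endothelial markers 6 lay at or below background on all 6 arrays, Pecam1 and Cdh5 among them. In this list 1 rose, Egfl7 (at least 1.37-fold higher, limma adjusted p = 0.0255), and without an array the rises numbered 0 or 1. The 2 that fell were Kdr (at least 1.79-fold lower, limma adjusted p = 0.00270) and Emcn (limma adjusted p = 0.00437). Of 10 epithelial markers Krt18 fell (limma adjusted p = 0.0182), 0 rose and 9 did not pass. The median difference of that list was 0.14, and 6 of its genes were higher in the tetraploid line. Raised to the background level, the calls of Emcn and Krt18 ended (limma adjusted p 0.337 and 0.463), and that of Krt18 also ended without tetraploid array 2. These markers were named after their values were seen, and their part in the members' values was not tested. Of 12 macrophage markers, 6 lay at or below background on all 6 arrays, Ptprc, Adgre1 and Itgam among them, and 0 lay above it on all. In this list 0 rose and 2 fell, Lyz2 and C1qa (limma adjusted p 0.0290 and 0.0399), also named after their values were seen. Lyz2 stood at 6.48, 9.32 and 9.98 on diploid arrays 1 to 3, above background on arrays 2 and 3. Raised to the background level the falls numbered 0, and without an array 0 to 6. The macrophage list averaged 4.18, 4.46 and 4.35 on tetraploid arrays 1 to 3, against 5.07, 6.39 and 7.22 on diploid arrays 1 to 3. In bulk samples a smaller share of dividing cells and less RNA per cell cannot be told apart.

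Ccnd2, a D-type cyclin that growth factors induce in many cell types, was the member that differed most. It stood at 12.25, 11.40 and 11.92 on tetraploid arrays 1 to 3, against 13.08, 13.02 and 12.99 on diploid arrays 1 to 3. Every tetraploid array lay below every diploid array, and the diploid arrays were close together while the tetraploid arrays were spread. The means were 11.86 ± 0.43 in the tetraploid line and 13.03 ± 0.05 in the diploid line (SD, n = 3 each), a difference of -1.17 (SE 0.26, limma adjusted p = 0.0285). The 95% interval of the fold was 1.48 to 3.44. When each array was left out in turn the call was lost 5 times in 6 and held without tetraploid array 1. In the 5 fits that lost it the limma adjusted p was 0.0542 to 0.1004 and the difference -0.94 to -1.20.

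Ccnd1, the D-type cyclin most often linked to growth factor signalling and cancer, did not pass the test. It stood at 11.51, 10.56 and 10.82 on the tetraploid arrays, against 10.85, 10.78 and 11.09 on the diploid arrays. The tetraploid arrays lay on both sides of the diploid range. The difference was 0.06 with a 95% interval of -0.62 to 0.73 (limma adjusted p = 0.923), an interval that spans changes in both directions. The sign turned without tetraploid array 1 (-0.22) and without diploid array 2 (-0.01).

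Ccnd3, the third D-type cyclin, stood at 9.45, 9.51 and 10.12 on the tetraploid arrays, against 9.96, 9.95 and 10.15 on the diploid arrays. Tetraploid arrays 1 and 2 lay below the diploid range and array 3 lay inside it. The difference was -0.33 (95% interval -0.90 to 0.25, limma adjusted p = 0.430).

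The kinases CDK4 and CDK6 bind the same cyclins, and the differences of their genes had opposite signs. Cdk6 stood at 9.80, 9.60 and 9.01 on the tetraploid arrays, against 10.64, 10.51 and 10.30 on the diploid arrays. All tetraploid arrays were lower, array 3 most of all. The means were 9.47 ± 0.41 in the tetraploid line and 10.48 ± 0.17 in the diploid line (SD, n = 3 each), a difference of -1.01 (SE 0.26, limma adjusted p = 0.0458), and the 95% interval of the fold was 1.32 to 3.10. This call too was lost 5 times in 6 when an array was left out and held without tetraploid array 1. In the 5 fits that lost it the limma adjusted p was 0.0759 to 0.146 and the difference -0.79 to -1.11.

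Cdk4 stood at 12.72, 12.89 and 13.00 on the tetraploid arrays, against 12.19, 12.25 and 12.41 on the diploid arrays. Every tetraploid array was higher and both lines were tight. The means were 12.87 ± 0.14 in the tetraploid line and 12.28 ± 0.12 in the diploid line (SD, n = 3 each). The difference was 0.59 (SE 0.19, 95% interval 0.13 to 1.04, unadjusted p = 0.0183), a 1.50-fold higher mean that did not pass the adjusted test (limma adjusted p = 0.0904). It did pass with a floor at the background level (adjusted p = 0.0135), after dim genes under the median level were dropped (adjusted p = 0.0309) and with an intensity trend in limma (adjusted p = 0.00800). It did not pass with quantile normalization (difference 0.47, adjusted p = 0.151) or in any of the 6 fits without an array (adjusted p 0.0751 to 0.251).

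The promoters of these kinase genes are shown because the E-box CACGTG, the hexamer bound by MYC and related factors, occurs a different number of times in them. The windows run from 250 bases before to 50 bases after an annotated start site in RefSeq, build GRCm38.p6, printed on the gene's strand. Capitals mark E-boxes. The Cdk4 window lies at chr10:127063285-127063584 on the plus strand and the Cdk6 window at chr5:3343643-3343942 on the plus strand. The Cdk6 gene begins before its window, at 3341004, so the window is that of a start site inside the gene. The region around the first base of Cdk6 was not searched.
Cdk4: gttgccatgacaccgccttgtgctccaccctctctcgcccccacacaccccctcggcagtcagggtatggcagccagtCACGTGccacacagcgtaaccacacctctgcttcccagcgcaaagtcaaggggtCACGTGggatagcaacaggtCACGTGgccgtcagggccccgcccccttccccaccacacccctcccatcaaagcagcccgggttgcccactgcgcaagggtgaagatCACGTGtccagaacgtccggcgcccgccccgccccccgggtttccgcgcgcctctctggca
Cdk6: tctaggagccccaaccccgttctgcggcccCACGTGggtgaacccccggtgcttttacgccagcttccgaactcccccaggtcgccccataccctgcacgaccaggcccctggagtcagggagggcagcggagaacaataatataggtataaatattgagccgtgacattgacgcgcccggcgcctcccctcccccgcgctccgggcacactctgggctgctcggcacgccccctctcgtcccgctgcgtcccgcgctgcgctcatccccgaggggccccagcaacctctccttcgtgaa
The Cdk4 window held 4 E-boxes, which began 172, 118, 98 and 11 bases before the start site, and the Cdk6 window held 1, which began 220 bases before it. CACGTG reads the same on both strands. It occurred in 7.15% of 32851 promoter windows of this length, and 0.0244% held 4 or more. Myc itself stood at 11.24 ± 0.44 in the tetraploid line and 10.80 ± 0.21 in the diploid line (SD, n = 3 each) and did not pass the test (difference 0.43, limma adjusted p = 0.350). A match in letters is a description and not a site shown to be bound.

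The differences of the E-type cyclins also had opposite signs, and neither passed the test. Ccne1 stood at 9.50, 9.12 and 9.38 on the tetraploid arrays, against 9.83, 9.58 and 10.10 on the diploid arrays. The lines did not overlap, but tetraploid array 1 and diploid array 2 were close. The difference was -0.50 (95% interval -1.04 to 0.03, limma adjusted p = 0.192). Ccne2 stood at 8.80, 7.93 and 8.09 on the tetraploid arrays, against 7.55, 7.15 and 7.95 on the diploid arrays. Tetraploid array 2 and diploid array 3 overlapped, and diploid array 2 lay below the background level. The difference was 0.72 (95% interval -0.04 to 1.47, limma adjusted p = 0.189).

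Cdk2, the partner of both E-type cyclins, stood at 9.54, 10.11 and 10.19 on the tetraploid arrays, against 9.20, 9.27 and 9.74 on the diploid arrays. Tetraploid array 1 lay below diploid array 3, and the other tetraploid arrays lay above all diploid arrays. The difference was 0.54 (95% interval -0.08 to 1.17, limma adjusted p = 0.225). Cdc25a stood at 9.51, 8.80 and 9.15 on the tetraploid arrays, against 9.31, 9.12 and 9.56 on the diploid arrays. The lines overlapped. The difference was -0.17 (95% interval -0.77 to 0.42, limma adjusted p = 0.706), and it was 0.0045 without tetraploid array 2.

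The promoters of Cdk2 and Cdc25a are shown because each held 1 match to the E2F motif. The letters searched, on both strands, were TTTCCCGC, TTTCGCGC, TTTGCCGC and TTTGGCGC. Windows and source are as for the kinase genes above, and capitals mark the match. The Cdk2 window lies at chr10:128705002-128705301 on the minus strand and the Cdc25a window at chr9:109875329-109875628 on the plus strand.
Cdk2: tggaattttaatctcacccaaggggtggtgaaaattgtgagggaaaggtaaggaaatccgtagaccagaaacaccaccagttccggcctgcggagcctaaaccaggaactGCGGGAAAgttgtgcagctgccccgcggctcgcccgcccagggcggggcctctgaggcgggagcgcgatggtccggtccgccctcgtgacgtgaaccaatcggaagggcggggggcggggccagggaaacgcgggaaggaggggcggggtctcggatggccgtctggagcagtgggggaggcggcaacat
Cdc25a: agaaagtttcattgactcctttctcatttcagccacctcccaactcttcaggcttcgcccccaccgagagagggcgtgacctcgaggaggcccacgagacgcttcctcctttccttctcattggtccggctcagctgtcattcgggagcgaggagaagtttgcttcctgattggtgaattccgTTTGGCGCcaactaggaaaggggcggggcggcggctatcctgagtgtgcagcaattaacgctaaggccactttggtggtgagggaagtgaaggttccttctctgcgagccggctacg
The match began 140 bases before the start site in Cdk2, where it read GCGGGAAA, and 67 bases before it in Cdc25a, where it read TTTGGCGC. Such a match occurred in 2.26% of the 32851 windows. None was found in the windows of Ccne1, Ccnd3, Cdk4 or Cdk6, which says only that these letters are not in those windows. The AP-1 motif TGANTCA, bound by FOS and JUN proteins and searched on both strands, occurred in 7.81% of all windows and in 0 of the 7 windows of the members. Windows were found for 6 of the 9 genes, 2 of them for Ccnd3. Ccnd1, Ccnd2 and Ccne2 had none in the table used.

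**Figure D2:**
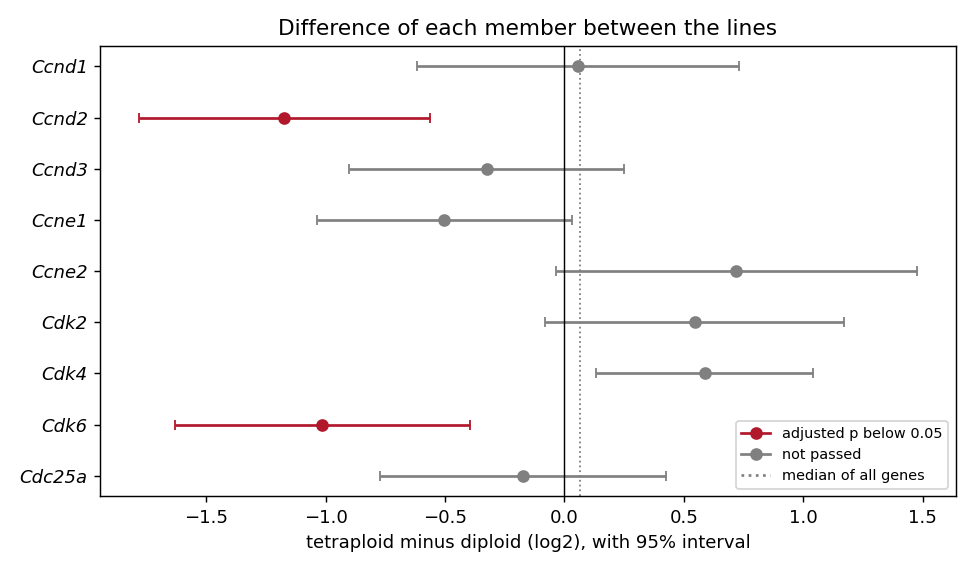
Difference between the tetraploid and the diploid line (log2, tetraploid minus diploid) for each of the 9 genes, with the 95% interval of the limma fit, not adjusted for the number of genes. Ccnd2 and Cdk6, in red, passed the adjusted test at -1.17 and -1.01, the 7 grey genes did not, and the dotted line marks the median of all genes at 0.07.

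The members of a family were next set against each other on each array. A constant shift of an array cancels in such a ratio, though other scalings need not. Each gene was first expressed relative to its diploid mean. All 5 pairs within the D-type cyclins, the E-type cyclins and the D-type kinases were computed, a choice made after the values were seen. The Cdk4 over Cdk6 ratio (log2) was 1.12, 1.49 and 2.20 on tetraploid arrays 1 to 3, against -0.25, -0.06 and 0.31 on diploid arrays 1 to 3. The lines were wide apart, with a mean of 1.60 ± 0.55 in the tetraploid line and an SD of 0.29 in the diploid line (n = 3 each). The Ccnd1 over Ccnd2 ratio was 1.38, 1.28 and 1.03 on the tetraploid arrays, against -0.10, -0.12 and 0.22 on the diploid arrays. Its SD was 0.18 in the tetraploid line and 0.19 in the diploid line (n = 3 each). The Ccne2 over Ccne1 ratio was 1.59, 1.09 and 0.99 on the tetraploid arrays, against 0.01, -0.14 and 0.13 on the diploid arrays. For these 3 ratios and for Ccnd3 over Ccnd2 (mean 0.85 ± 0.56 in the tetraploid line) the lines did not overlap, and the exact two-sided permutation p was 0.1, the smallest it can give. Ccnd3 over Ccnd2 was the least even of them, at 0.20 on tetraploid array 1 against 0.17 on diploid array 3. The lines overlapped for Ccnd1 over Ccnd3 (exact permutation p = 0.6). Ccnd2, Cdk6, Cdk4 and Ccne1 did not overlap as single genes either, as held for 37.3% of all genes, and Ccnd2 is in both D-type ratios without overlap. The share of all gene pairs without overlap was not computed, so the count of such ratios is no result about the families. A ratio of this kind shows unequal change, and not which of its genes changed.

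**Figure D3:**
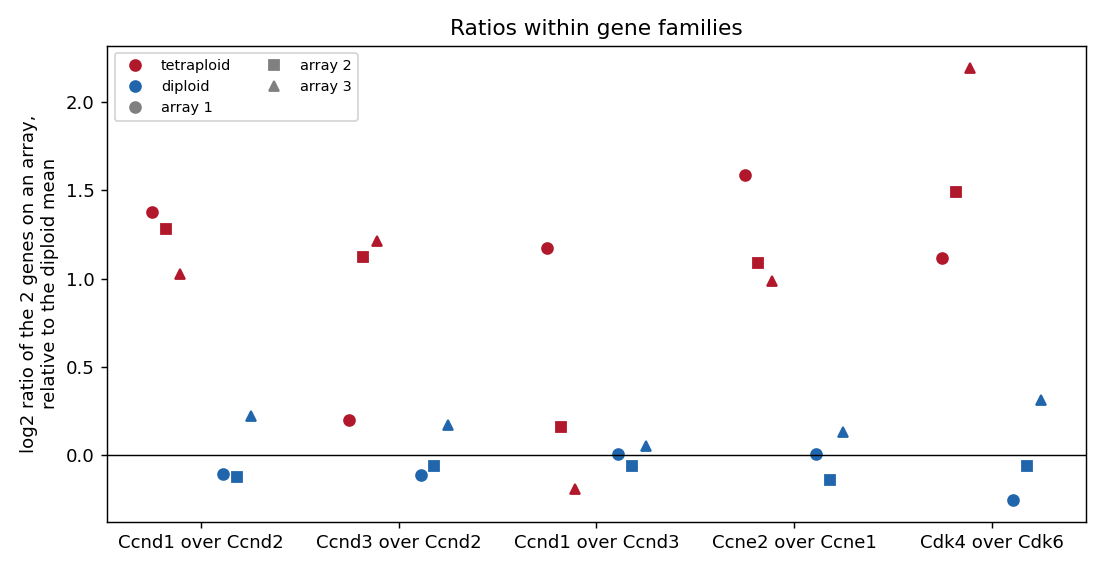
Log2 ratio of 2 genes of a family on each array, relative to the mean of the diploid arrays, for the 3 tetraploid arrays (red, left) and the 3 diploid arrays (blue, right); symbols mark the array number. Tetraploid points lie above all diploid points in 4 of the 5 pairs, only just for Ccnd3 over Ccnd2, and overlap them for Ccnd1 over Ccnd3. The pairs were chosen after the values were seen.

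As group means, the E-type cyclins relative to the D-type cyclins were 0.71, 0.66 and 0.40 on the tetraploid arrays, against 0.02, -0.26 and 0.24 on the diploid arrays (log2, relative to the diploid mean). Cdk2 relative to the mean of Cdk4 and Cdk6 was 0.26, 0.85 and 1.17 on the tetraploid arrays, against -0.23, -0.13 and 0.36 on the diploid arrays. The first of these averages did not overlap between the lines and the second did. Both average over members whose differences had opposite signs, and neither was tested.

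Within a line the members varied with the array. The SD was larger in the tetraploid line for 8 of the 9 genes, at 0.14 to 0.49 in the tetraploid line and 0.05 to 0.40 in the diploid line. The tetraploid SD was also the larger one for 64.8% of all genes. Tetraploid array 1 was the highest of its line for Ccnd1, Ccnd2, Ccne1, Ccne2, Cdk6 and Cdc25a, and array 2 was the lowest for the first 4 of these and for Cdc25a. In the diploid line, array 3 was the highest for 7 genes and the lowest for the other 2, Ccnd2 and Cdk6. Among genes above the median level, diploid array 3 was the highest of its line in 46.7% and tetraploid array 1 in 41.5%. The macrophage list was highest on diploid array 3 (7.22), and so was the list of E2F-driven S phase genes, at 8.91 against 8.52 and 8.39 on diploid arrays 1 and 2. Their part in the members' values was not tested.

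The members lie on 7 chromosomes, and their neighbours differed from place to place. For each member, up to 10 genes on either side whose mean was above the median level were taken in the order of the RefSeq table. Around Ccnd2 on chromosome 6 the 20 neighbours had a median difference of 0.20, with 2 that rose and 2 that fell. Around Cdk6 near the start of chromosome 5 the 10 neighbours had a median of -0.35, 8 of them lower in the tetraploid line and 2 called as fallen. Cdk2 and Cdk4 both lie on chromosome 10, where their neighbours had medians of 0.09 and -0.02 and 1 called gene in all. Ccnd1 lies near the end of chromosome 7, and its 14 neighbours had a median of -0.55, with 4 that fell. Ccne1, on the same chromosome, had neighbours with a median of -0.07, and the median over chromosome 7 was -0.32. Around Ccnd3, Ccne2 and Cdc25a the medians were 0.38, -0.04 and 0.06.

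Genes that act beside the 9 members were compared by list. The shares of all genes set beside the lists include genes near background, while most genes of each list lay above it on all arrays. With only genes above the median level fitted, 31.5% of those genes were called, beside 14.0% of all genes in the main fit. Many S phase genes that E2F drives rose in the tetraploid line. Of 29 measured, 17 rose (58.6%, beside 6.15% of all genes), 0 fell and 12 did not pass, with a median difference of 1.31. Prim1, which encodes the catalytic primase subunit, stood at 10.74 ± 0.25 in the tetraploid line and 8.27 ± 0.46 in the diploid line (SD, n = 3 each; 5.51-fold higher, limma adjusted p = 0.00409). The origin licensing gene Cdt1 was 4.31-fold higher and the DNA polymerase alpha gene Pola1 3.78-fold. E2f1, itself an E2F target, did not pass (difference 0.54, limma adjusted p = 0.345). The count of rises was 6 to 18 over the fits without 1 array, lowest without diploid array 2 (6) and diploid array 1 (8), and 11 without tetraploid array 2. The call of Pola1 ended without diploid array 1 or 2 (adjusted p up to 0.0618). The difference between this list and the 9 members was not tested.

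Among 20 other cyclins, 3 rose (15%), 2 fell and 15 did not pass, with a median of 0.13, beside 6.15% higher and 7.80% lower over all genes. Ccng1, a p53 target that encodes an atypical cyclin, was 5.73-fold lower (limma adjusted p = 0.00108), and Ccnyl1, of the cyclin Y family, 4.65-fold lower. The mitotic cyclin gene Ccnb2 was 2.70-fold higher. Ccna2, the cyclin that follows cyclin E as a partner of CDK2, stood at 11.58 ± 0.27 in the tetraploid line and 10.26 ± 0.43 in the diploid line (SD, n = 3 each; 2.49-fold higher, limma adjusted p = 0.0273). Without diploid array 1 or 2 the rises of this list numbered 0, and without tetraploid array 2 they numbered 1. The falls numbered 4 without diploid array 1 and otherwise 2. The call of Ccnb2 ended without diploid array 1 or 2 (adjusted p up to 0.0669), and that of Ccna2 without diploid array 1 or 2 or tetraploid array 1 or 2 (adjusted p up to 0.105).

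Of 16 other cyclin-dependent kinases, 4 rose, 0 fell and 12 did not pass, with a median of 0.20. The rises were 25% of the list, beside 6.15% of all genes. Without diploid array 1 or 2 the rises numbered 0, and without diploid array 3 or tetraploid array 2 they numbered 2. Cdk1, the kinase of mitotic entry, stood at 11.02 ± 0.13 in the tetraploid line and 9.82 ± 0.27 in the diploid line (SD, n = 3 each; 2.30-fold higher, limma adjusted p = 0.0157). Cdk19, a kinase of the Mediator complex, was 2.68-fold higher. Cdk20 stayed within background on every array but tetraploid array 1 and was at least 1.25-fold higher, a bound that rests on that array. Raised to the background level, its difference was 0.33 and the call ended (limma adjusted p = 0.232). The call of Cdk1 ended without diploid array 1 or 2 (adjusted p up to 0.0757). That of Cdk19 ended without any 1 diploid array or tetraploid array 3, and that of Cdk20 without diploid array 1 or 2 or tetraploid array 2 (adjusted p up to 0.0949 and 0.0964).

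Of 8 measured enzymes and helpers that switch these kinases on or off, 3 rose, 0 fell and 5 did not pass. The rises were 37.5% of the list, beside 6.15% of all genes, and numbered 1 without diploid array 1 or 2. The relatives of Cdc25a were among the rises. Cdc25b stood at 10.02 ± 0.26 in the tetraploid line and 8.17 ± 0.45 in the diploid line (SD, n = 3 each; 3.60-fold higher, limma adjusted p = 0.0100), and Cdc25c was 3.03-fold higher, while Cdc25a did not pass. The inhibitory kinase gene Pkmyt1 was 2.94-fold higher, with diploid arrays 1 and 2 at or below background. The calls of Cdc25c and Pkmyt1 ended without diploid array 1 or 2 (adjusted p up to 0.0557 and 0.0671).

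Genes for the turnover of G1 cyclins and of their inhibitors were measured for 18 list entries, of which 6 rose, 1 fell and 11 did not pass (median 0.36). The rises were 33.3% of the list, beside 6.15% of all genes. Skp2, the ubiquitin ligase subunit that marks the inhibitor p27 for destruction, stood at 10.11 ± 0.03 in the tetraploid line and 8.81 ± 0.28 in the diploid line (SD, n = 3 each; 2.47-fold higher, limma adjusted p = 0.0116). Its cofactor gene Cks1b was 2.21-fold higher. Usp2, a deubiquitinase gene that acts on cyclin D1, stayed within background on every tetraploid array and was at least 1.23-fold lower. Raised to the background level, its difference was -0.30 and the call, the only fall of the list, ended (limma adjusted p = 0.237). Fbxw7, whose product marks cyclin E for destruction, did not pass (difference -0.83, limma adjusted p = 0.0856), though it did at the background level (adjusted p = 0.0170). The calls of Skp2 and Cks1b ended without diploid array 1 or 2 (adjusted p up to 0.0613 and 0.0771), and that of Usp2 whenever an array other than tetraploid array 3 was left out (adjusted p up to 0.116). Without diploid array 1 or 2 the count of rises in this list was 0, and without diploid array 3 or tetraploid array 2 it was 3.

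The inhibitors that bind these cyclins and kinases, with the pocket proteins they act on, went both ways. Of 10 measured, 5 rose (50%, beside 6.15% of all genes), 2 fell (beside 7.80% of all genes) and 3 did not pass. Cdkn2c, whose product binds CDK4 and CDK6, and Cdkn2a, which encodes both a protein that binds them and the unrelated ARF, were 4.61-fold and 4.45-fold higher. For Cdkn2c diploid array 1 lay below background. Cdkn1b, the gene of the CDK2 inhibitor p27, was 2.04-fold higher. Cdkn1c, a related inhibitor gene that stayed within background on every tetraploid array, was at least 7.86-fold lower (limma adjusted p = 0.00375). The other fall was that of Rb1, the retinoblastoma gene, named after its values were seen (difference -1.09, limma adjusted p = 0.0438). This call ended whenever an array other than tetraploid array 3 was left out (adjusted p up to 0.139). The other pocket protein genes had the opposite sign. Rbl1 rose (3.07-fold higher, limma adjusted p = 0.0112), and Rbl2 did not pass (difference 0.55, limma adjusted p = 0.288). Without an array the rises of the list numbered 2 to 5, with 2 without diploid array 2 and 3 without diploid array 1. The falls numbered 1 in every such fit but that without tetraploid array 3, where they were 2. The probe set of Cdkn2a does not tell its products apart. The call of Cdkn1b ended whenever an array other than tetraploid array 1 was left out (adjusted p up to 0.139).

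Of 23 transcription factors and regulators on the growth factor side of the D-type cyclins, 2 rose, 2 fell and 19 did not pass, with a median of -0.13. The rises were 8.7% of the list, beside 6.15% higher and 7.80% lower over all genes, so both counts are close to the background. One of the rises was Mycn, a relative of Myc, which stayed within background on all 6 arrays and for which no fold is given. Its call ended at the background level (limma adjusted p = 0.463) and in 5 of the 6 fits without an array, all but the one without tetraploid array 2. With an array left out the rises numbered 0 or 1 in every fit, and the falls 4 without tetraploid array 1 and otherwise 2. The AP-1 genes Fos and Fosb fell. Fos stood at 7.98 ± 0.16 in the tetraploid line and 11.00 ± 0.28 in the diploid line (SD, n = 3 each; 8.08-fold lower, limma adjusted p = 8.92e-04). Fosb was 7.37-fold lower, with tetraploid array 2 below background. Ets2, a factor of the ETS family, was 1.99-fold higher, and its call ended without tetraploid array 2 or 3 or diploid array 1 or 2 (adjusted p up to 0.125).

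**Figure D4:**
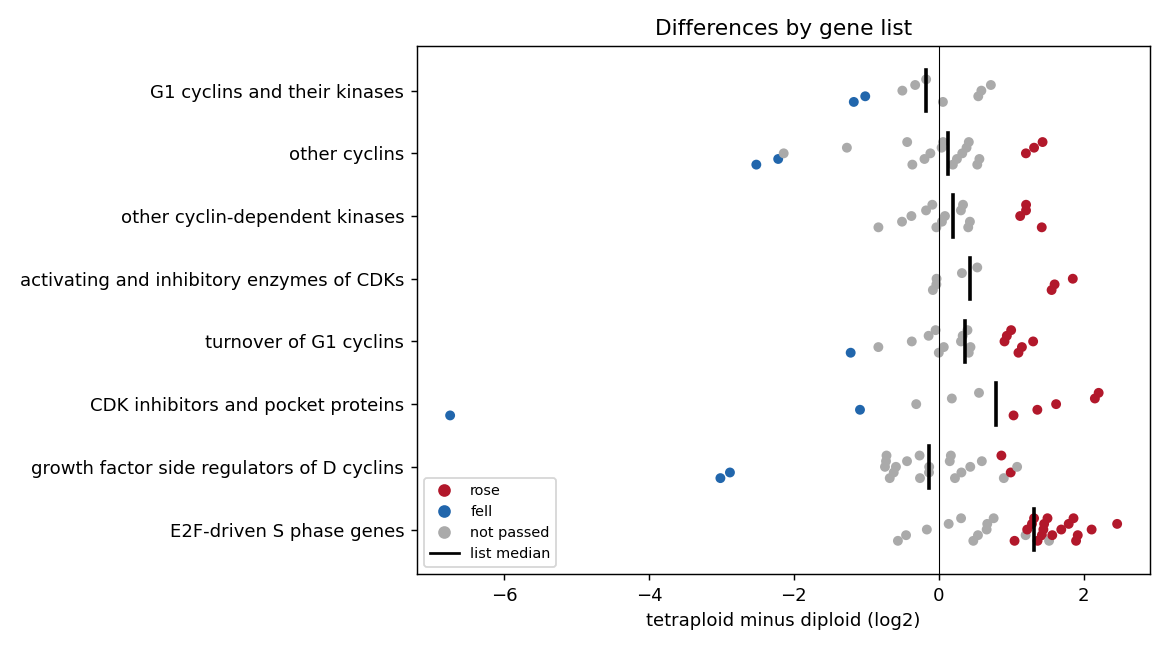
Differences (log2, tetraploid minus diploid) of all measured genes in the list of 9 members and in 7 lists of related genes; red rose, blue fell and grey did not pass, and the black bar is the list median. The median was -0.17 for the 9 members and 1.31 for the E2F-driven S phase genes, and the lowest point, Cdkn1c, stayed within background on every tetraploid array.

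The genes whose pattern over the 6 arrays was most like that of Ccnd2 were Btbd10, Ssh1 and Tmed5. Likeness was the root mean square distance between values centred on the gene's own mean, over 6 arrays that share 2 lines, and was 0.07, 0.07 and 0.08 log2 units. Ssh1, a phosphatase gene that activates the actin-severing protein cofilin, stood at 8.86, 8.04 and 8.37 on the tetraploid arrays, against 9.71, 9.53 and 9.63 on the diploid arrays. As for Ccnd2, tetraploid array 1 was the highest and array 2 the lowest of that line. The differences of Btbd10, Ssh1 and Tmed5 were -1.19, -1.20 and -1.13. Since these genes were picked for their likeness to a called gene, their differences follow from the choice and are given as a description, with no test. A distance below 0.15 was found for 46 genes, so such a pattern is shared by many.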

How the data were processed

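Deposited values were log2 intensities, 1 per probe set and array, and the submitters' processing notes name Affymetrix Expression Console as the tool the authors used. Its version, background correction and normalization are not given in the sources used here. Array medians differed by at most 0.0435, so the values were used as deposited. Of 28944 probe sets, 21789 carried 1 gene symbol, 1621 several and 5534 none. After matching Entrez IDs to RefSeq (assembly GRCm38.p6, used for names, gene order and promoters), 21698 remained, and the probe set with the highest mean per gene left 19856 genes.

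The lines were compared gene by gene in R 4.3.3 with limma 3.58.1 (lmFit, eBayes, two-sided), adjusted over all genes. The procedure was run on simulated data only with differences larger than those of Ccnd2 and Cdk6, so that check does not cover differences of their size. Where all arrays of a line lay at or below background, the fold is a lower bound computed with values raised to it. Arrays give no counts, so their number limits the precision. Replicate numbers recur in both lines, but deviations of same-numbered arrays correlated at only 0.101, 0.0307 and -0.0461, so no block was used. The members, lists, background rule and tests were chosen with earlier results of these data known. Named list genes are the 3 called ones with the largest difference per list, plus 9 partners of the members. For 1 member, the 3 most similar genes were named. Rb1, Rbl1, Rbl2, Mycn and the cell type markers fell outside this rule and were named after their values were seen. Listed genes without a single-symbol probe set were not analysed here. Alternatives covered scaling, background, dim genes, probe sets, the variance model, the replicate block and each array left out.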

Additional observations from a re-analysis of the deposited data

How the results depend on the processing

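Over all genes, 2770 were called (1221 higher and 1549 lower in the tetraploid line). The replicate block gave 1644 (607 higher), and 0 of the 9 members were called with it: Ccnd2 kept -1.17 (limma adjusted p = 0.0565) and Cdk6 -1.01 (adjusted p = 0.0613). The higher calls numbered 1960 with values raised to the background level and 1838 with an intensity trend, where Cdk4, at 0.59, passed, as it did with only genes above the median level. Quantile normalization, median centring and averaging of probe sets kept Ccnd2 and Cdk6 as the only members called. Over the fits without 1 array, the calls ranged from 837 to 2532 (261 to 1043 higher and 576 to 1557 lower), and the called members from 0 to 2. The differences then ranged from -1.37 to -0.94 for Ccnd2, -1.18 to -0.79 for Cdk6, -0.22 to 0.26 for Ccnd1 and -0.35 to 0.0045 for Cdc25a, the last 2 changing sign (Ccnd1 at -0.22 and -0.0087 without tetraploid array 1 and diploid array 2). These fits hold fewer arrays. The balance of E-type to D-type cyclins lay between 0.46 and 0.71 in these fits and that of the kinases between 0.56 and 1.01.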

Other observations

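Across the whole table, genes with an E2F motif in the promoter window were called as higher in the tetraploid line in 88 of 541 cases (16.3%), against 6.15% of all genes, with a median difference of 0.23. Of the same genes 38 fell (7.02%), against 7.80% of all genes. For genes with an E-box, 87 of 1481 rose (5.87%) and 153 fell (10.3%), against 6.15% and 7.80% of all genes. For genes with the AP-1 motif, 49 of 1255 rose (3.90%) and 97 fell (7.73%). The shares of all genes include genes without a promoter window and genes near background. The share called among all genes with a window was not computed, so the motif shares lack a like baseline. None of these shares was tested.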
